A study of Mus musculus with 21 samples.

Results

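The C/EBP family of transcription factors was followed through blood cell formation in mouse bone marrow, as the transcripts of 5 genes, Cebpa, Cebpb, Cebpd, Cebpg and Ddit3. The members were chosen by name: a gene entered when a probe of the array carried a RefSeq accession of that symbol, and 8 probes did so. The array carried probes for 18217 gene symbols in all, of which 14315 could be tested. Where a gene had several probes, the probe with the highest mean over all arrays stands for it. Expression was measured on 1-colour arrays in 7 cell fractions sorted from marrow, 21 arrays with each fraction on 3. The donors were C57BL/6 mice, and the labels name no treatment and no altered allele. KLS cells, which hold the stem cells, lacked the lineage markers B220, CD3, CD4, CD8, CD41, Mac1, Gr1 and Ter119 and carried ckit and sca1. PreMegE, CFUe and Ter119 form the erythroid series, and PreGM, GMP and Mac1Gr1 the myeloid series. PreMegE cells were sorted as CD150+ CD105- and negative for Fc gamma receptors, GMP cells as CD150- and positive for them, Ter119 cells as CD71+ Ter119+ and Mac1Gr1 cells as Mac1+ Gr1+. The labels write the same gate for CFUe and PreGM (CD150- CD105-, Fc gamma receptor negative), and write sca1+ for all 4 intermediate fractions, so these fractions are known here by their names. The labels give neither the age nor the sex of the mice and do not say that replicates came from separate animals, so p values measure the spread between these samples, which may be technical.

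C/EBP proteins bind DNA as dimers through a basic leucine zipper. Cebpa is known as the factor that granulocyte-monocyte progenitors need to form, Cebpb as the factor that drives granulopoiesis under infection and cytokine demand, and Cebpd as an acute-phase factor of late neutrophils and macrophages. Cebpg lacks a strong activation domain and acts mostly through its partners. Ddit3, also called CHOP, dimerises with other members, keeps them from their usual sites and is induced with Atf4 in the stress response that phosphorylates eIF2.

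The family takes its name from the CCAAT box of gene promoters. Promoter sequences from RefSeq (GRCm38.p6, 250 bases before to 50 bases after the gene start) were listed for 4 of the 5 members. They are shown for Ddit3 and Cebpg, the members that hold the box, and for Cebpa, which does not. Capitals mark the box, here as its reverse complement.
Ddit3, chr10:127290543-127290842, + strand: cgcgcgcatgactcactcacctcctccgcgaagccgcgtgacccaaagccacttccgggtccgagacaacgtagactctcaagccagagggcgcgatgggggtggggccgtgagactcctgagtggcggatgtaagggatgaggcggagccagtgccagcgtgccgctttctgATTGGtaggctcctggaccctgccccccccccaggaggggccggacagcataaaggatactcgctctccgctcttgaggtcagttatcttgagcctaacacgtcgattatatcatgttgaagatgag
Cebpg, chr7:35056517-35056816, - strand: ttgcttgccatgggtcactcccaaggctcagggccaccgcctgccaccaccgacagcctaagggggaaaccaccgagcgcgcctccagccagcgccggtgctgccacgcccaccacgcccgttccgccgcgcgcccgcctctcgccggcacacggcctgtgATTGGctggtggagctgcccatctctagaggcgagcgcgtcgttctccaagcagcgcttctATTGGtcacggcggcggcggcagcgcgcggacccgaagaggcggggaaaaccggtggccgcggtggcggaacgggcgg
Cebpa, chr7:35119043-35119342, + strand: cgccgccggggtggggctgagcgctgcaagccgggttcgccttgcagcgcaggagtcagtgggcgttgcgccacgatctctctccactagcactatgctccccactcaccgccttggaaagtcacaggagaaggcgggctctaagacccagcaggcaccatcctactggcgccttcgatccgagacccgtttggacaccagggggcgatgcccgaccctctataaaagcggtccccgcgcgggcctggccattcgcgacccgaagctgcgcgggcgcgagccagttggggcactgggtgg
The Ddit3 promoter held 1 box, whose first base lay at -77 from the start, and the Cebpg promoter held 2, at -89 and -28. Over all 32841 promoters of the table, 37.4% held CCAAT on either strand. The binding motif of the family itself, TTGCNNAA, lay in 10.8% of all promoters but in none of the 4. Neither the cyclic AMP response element TGACGTCA (1.79% of all promoters) nor the composite C/EBP and ATF motif TGATGNAA (3.97%) nor the STAT motif TTCNNNGAA (8.3%) was found in the 4 windows, which says only that these letters are not there. GC content was 60.7% for Ddit3, 67.3% for Cebpa, 71.7% for Cebpg and 80.7% for Cebpb, against a median of 52.7% for all promoters.

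Signals were well above background for 56.4% to 77.4% of probes per array, and all 8 member probes were well above background on all 21 arrays. A level is the log2 signal relative to the 75th percentile of its array, which is 0, and levels of different genes cannot be compared on this scale. Of the sorting genes, Slamf1 (CD150) had a mean level of 0.32 in PreMegE and was well above background on no CFUe, PreGM or GMP array, and Ly6a (Sca1) had 2.57 in KLS, -3.14 in PreMegE, -0.31 in PreGM and 2.10 in GMP. In CFUe Ly6a was measured on 1 of 3 arrays, and it was above its KLS level in Ter119 and Mac1Gr1, at 3.74 and 5.38. Some libraries stood apart from the rest of their fraction. The 4 Y-linked genes Ddx3y, Eif2s3y, Kdm5d and Uty were well above background on 11 arrays and on none of the other 10. The 11 arrays were all of KLS, PreMegE and Ter119 and the third arrays of CFUe and PreGM. Xist was well above background on all 10 arrays that lacked the Y-linked transcripts and on 1 of the 11. GMP against KLS and Ter119 against Mac1Gr1 therefore differ in this respect on every array, and for these comparisons fraction and the Y-linked split cannot be told apart. The other comparisons of fractions are given with and without the third CFUe and PreGM arrays where that changes the result. Without these arrays, CFUe and PreGM also differ from KLS, PreMegE and Ter119 in Y-linked transcripts on every array.

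**Figure D1:**
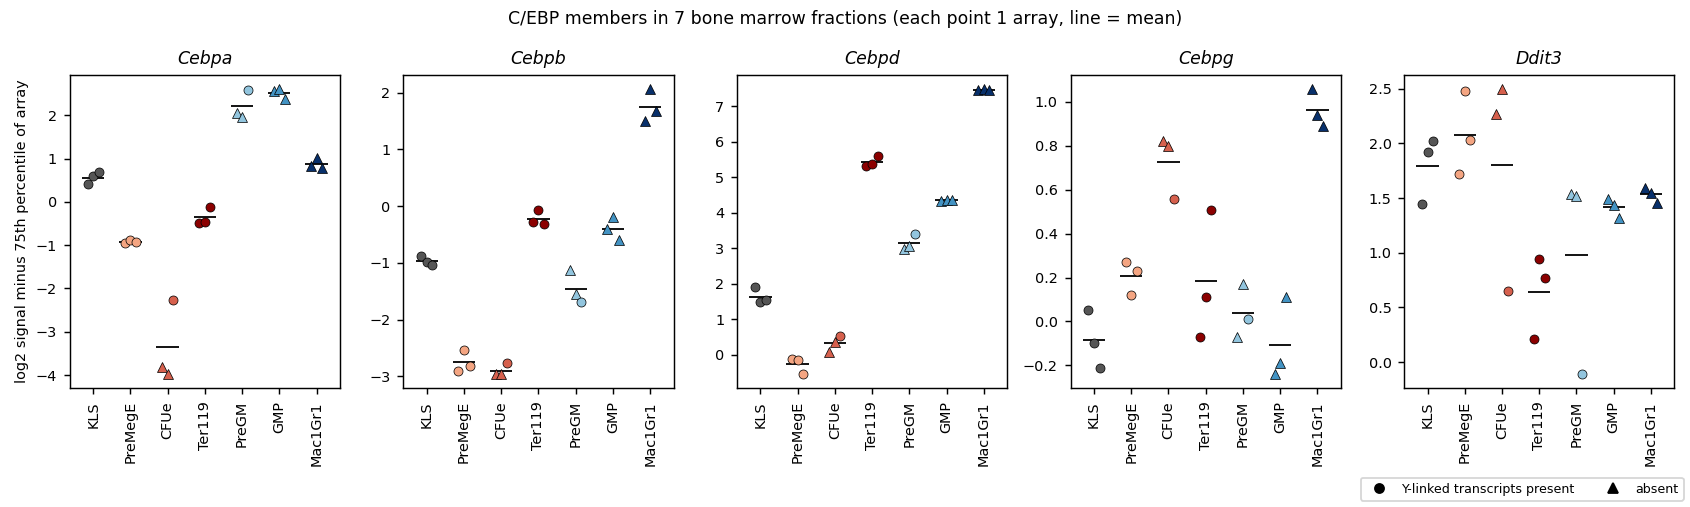
Level of each of the 5 members on every array (log2 signal minus the 75th percentile of the array, 1 panel per gene, each with its own scale). Points are arrays, lines are means of 3 arrays, circles mark arrays with Y-linked transcripts and triangles arrays without. Cebpd ran from a mean of -0.27 in PreMegE to 7.47 in Mac1Gr1, and the third CFUe and PreGM arrays lay at 0.65 and -0.11 for Ddit3, below the other arrays of their fractions.

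Cebpa was highest in the myeloid progenitors and lowest in CFUe. On the KLS arrays its level was 0.41, 0.59 and 0.68, and on the PreMegE arrays -0.96, -0.89 and -0.93. CFUe arrays stood at -3.82, -3.98 and -2.26, the third of them well above the other 2, and Ter119 arrays at -0.50, -0.46 and -0.12. The level was thus lower at each of the first 2 erythroid steps, and the Ter119 fraction was higher again. In the myeloid series, PreGM arrays gave 2.06, 1.96 and 2.59, GMP arrays 2.57, 2.61 and 2.37, and Mac1Gr1 arrays 0.83, 1.02 and 0.79. PreGM and GMP overlapped, and all other neighbours in the order of fractions (GMP, PreGM, Mac1Gr1, KLS, Ter119, PreMegE, CFUe) were apart.

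Tests on Cebpa followed these levels. It fell by 1.48 ± 0.31 (log2 change ± SE, limma, n = 3 arrays per fraction) from KLS to PreMegE (Benjamini-Hochberg adjusted p = 0.00153). The next erythroid step, to CFUe, brought a further -2.43 ± 0.31 (limma adjusted p = 4.99e-06). It rose by 1.65 ± 0.31 from KLS to PreGM (limma adjusted p = 9.79e-04). From PreGM to GMP the change was 0.31 ± 0.31 (limma adjusted p = 0.52), and from GMP to Mac1Gr1 Cebpa fell by 1.64 ± 0.31 (limma adjusted p = 1.33e-04). Scaled to the spike-in RNAs, the change from PreGM to GMP was 1.33 and was called (limma adjusted p = 0.00221). Between the lineages, PreMegE lay 8.76-fold below PreGM and CFUe 58.5-fold below GMP. On slides that held both fractions, the difference was -2.95 and -3.52 (log2) for PreMegE against PreGM and -3.02 for CFUe against PreMegE. With the slide as a block, the change from KLS to PreMegE was -0.83 (limma adjusted p = 0.306). A dimmer second probe of Cebpa gave the fraction means the same order with smaller changes, -0.95 from KLS to PreMegE, -0.37 from PreMegE to CFUe (limma adjusted p = 0.0819) and 0.66 from CFUe to Ter119, none of them called. On that probe PreMegE lay 4.91-fold below PreGM and CFUe 7.5-fold below GMP, both called, so the size of the CFUe difference rests on the probe.

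Cebpb was lowest in both early erythroid fractions and highest in Mac1Gr1. KLS arrays stood at -0.88, -0.99 and -1.04, PreMegE arrays at -2.90, -2.53 and -2.81, and CFUe arrays at -2.96, -2.96 and -2.77. Ter119 arrays, at -0.28, -0.06 and -0.31, were above all of these. PreGM arrays gave -1.12, -1.55 and -1.69, GMP arrays -0.41, -0.19 and -0.60, and Mac1Gr1 arrays 1.50, 2.07 and 1.68. Ter119 overlapped GMP and PreMegE overlapped CFUe, while the other neighbours in the order were apart. Cebpb thus fell in full at the first erythroid step, by 1.78 ± 0.17 (limma adjusted p = 4.43e-07), with a further -0.15 ± 0.17 to CFUe (limma adjusted p = 0.501). Its first myeloid step was -0.48 ± 0.17 (limma adjusted p = 0.046), under 2-fold, and the later steps were 1.05 ± 0.17 from PreGM to GMP and 2.15 ± 0.17 from GMP to Mac1Gr1 (limma adjusted p = 1.87e-04 and 3.69e-09). The rise to GMP passed 2-fold by little, and it was 0.93 without the third PreGM array, 0.95 without the second GMP array and 0.71 on the slide that held both fractions. Scaled to the spike-in RNAs, where the median of all probes changed by -1.86 from GMP to Mac1Gr1, Cebpb changed by 0.11 there (limma adjusted p = 0.722). On that scale its first myeloid step was -1.10 and was called (limma adjusted p = 0.01).

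Cebpd spanned the widest range between fraction means of the 5 members, and every fraction was apart from its neighbours in the order. PreMegE arrays were lowest, at -0.13, -0.14 and -0.55, followed by CFUe at 0.07, 0.36 and 0.52 and KLS at 1.91, 1.47 and 1.53. PreGM arrays stood at 2.97, 3.06 and 3.41, GMP at 4.33, 4.37 and 4.35, Ter119 at 5.32, 5.36 and 5.59, and Mac1Gr1 at 7.45, 7.49 and 7.47. The transcript rose at each myeloid step, by 1.51 ± 0.16, 1.20 ± 0.16 and 3.12 ± 0.16 (log2; limma adjusted p = 3.27e-06, 2.26e-05 and 9.75e-12). In the erythroid series it fell by 1.91 ± 0.16 to PreMegE (limma adjusted p = 7.48e-08), then changed by 0.59 ± 0.16 to CFUe (limma adjusted p = 0.00474, under 2-fold). PreMegE lay 10.7-fold below PreGM, and CFUe 16.4-fold below GMP. Under spike-in scaling the first myeloid step of Cebpd was 0.89 (limma adjusted p = 0.0232), under 2-fold, beside a median of -0.56 for all probes.

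All of the 3 activating members rose from CFUe to Ter119, Cebpa by 2.99 ± 0.31, Cebpb by 2.68 ± 0.17 and Cebpd by 5.11 ± 0.16 (log2; limma adjusted p = 1.19e-07, 2.02e-10 and 3.25e-14). On the slide that held both fractions, the differences were 3.69, 2.65 and 5.52. Granulocyte markers rose with them. The 13 markers measured, among them S100a8, S100a9 and Ltf, were all well above background on every Ter119 array, and all 13 were called higher in Ter119 than in CFUe, with a median log2 change of 10.7, or 10.07 with markers not well above background in CFUe set at their bound. Of all probes, 57.2% were called there. Their summed level, on the linear scale with 1 at the 75th percentile, was 5120 to 6380 in Ter119, 6160 to 6940 in Mac1Gr1, 236 to 303 in GMP and 3.95 to 22.2 in CFUe. Erythroid markers, 10 in number, summed to 3640 to 4550 in Ter119 and 10.0 to 13.4 in Mac1Gr1, and B cell markers, 7 in number, to 110 to 159 and 25.1 to 44.8. The part of granulocyte or other RNA in the Ter119 levels of Cebpa, Cebpb and Cebpd was not tested. In sorted bulk RNA, fewer cells of a type and less RNA per cell cannot be told apart. Set directly against Mac1Gr1, Ter119 was lower by 1.24 ± 0.31 for Cebpa, 1.96 ± 0.17 for Cebpb and 2.05 ± 0.16 for Cebpd (limma adjusted p = 0.00198, 3.09e-08 and 7.12e-09), and with the slide as a block the Cebpa difference was -0.76 (limma adjusted p = 0.202).

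**Figure D2:**
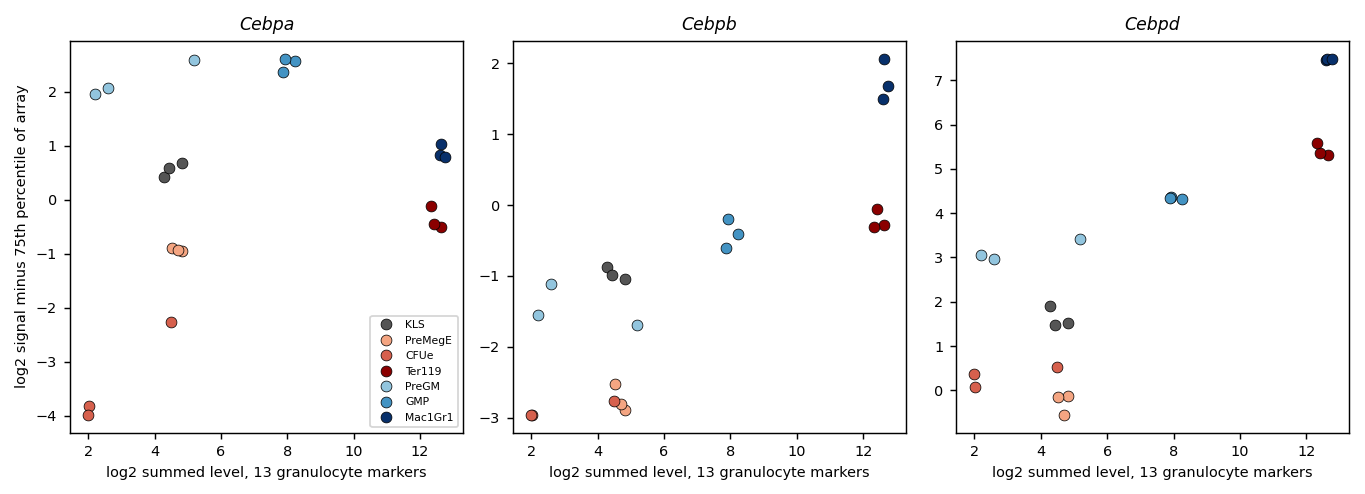
Level of Cebpa, Cebpb and Cebpd (y axis, log2 signal minus the 75th percentile of the array) against the log2 summed level of 13 granulocyte markers (x axis), each point 1 array coloured by fraction. Ter119 and Mac1Gr1 arrays share the right edge, at 12.32 to 12.76 on the x axis, and the third arrays of CFUe and PreGM lie to the right of the others of their fractions, at 4.48 and 5.19.

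Macrophage and immediate early genes also moved between fractions in which the members moved. The 11 macrophage markers summed to 29.2 to 83.0 in KLS and to 1.49 to 2.12 in PreMegE and 1.35 to 1.73 in PreGM, and 10 of 11 were called lower in PreMegE and in PreGM than in KLS (12.4% and 8.64% of all probes were called). From CFUe to Ter119 8 of 11 were called higher and 0 lower (57.2% of all probes). From GMP to Mac1Gr1 9 were called higher and 1 lower (56.7%). The 14 immediate early genes, such as Fos and Junb, summed to 888 to 1020 in KLS, 879 to 1060 in PreMegE and 93.7 to 271 in CFUe. In GMP they summed to 138 to 166, and in Mac1Gr1 to 872 to 891. Of the 14, 13 were called lower in CFUe than in PreMegE (24.7% of all probes), where Cebpb and Cebpd were not called. From GMP to Mac1Gr1, where Cebpb and Cebpd rose, 10 were called higher and 1 lower (56.7% of all probes). The part of either list in the Cebpb and Cebpd differences was not tested.

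Cebpg, on its brightest probe, varied less than 2-fold at 5 of the 6 steps. Over 5 fractions (PreMegE, Ter119, PreGM, KLS and GMP) its level overlapped from neighbour to neighbour, with means between 0.21 and -0.11. CFUe arrays were higher, at 0.82, 0.80 and 0.56, and Mac1Gr1 arrays highest, at 1.06, 0.94 and 0.89. From PreMegE to CFUe the change was 0.52 ± 0.14 and from CFUe to Ter119 -0.54 ± 0.14 (limma adjusted p = 0.00604 and 0.00255), both under 2-fold. One of its dimmer probes gave -1.28 from CFUe to Ter119 and 1.40 for CFUe against KLS, both called (limma adjusted p = 0.00811 and 0.00583). On that probe the CFUe arrays stood at 0.44, 0.76 and -0.90, beside means of -1.18 in Ter119 and -1.30 in KLS. Its PreGM arrays stood at -0.05, -0.06 and -1.81. The third of each is the array with Y-linked transcripts, and the part of that split was not tested. The step from GMP to Mac1Gr1, 1.08 ± 0.14 (limma adjusted p = 2.78e-06), was called. It was -0.96 under spike-in scaling, 0.94 with another background correction and 0.92 with the slide as a block. The 2 dimmer probes of Cebpg gave 0.09 and -0.58 for that step, and the 3 probes correlated with each other at only 0.13 to 0.50 over the 21 arrays, so the level of Cebpg rests on the probe chosen. Cebpz, which carries the name but is a CCAAT box binding protein of another structure, fell by 2.26 between CFUe and Ter119 and by 1.44 between GMP and Mac1Gr1 (log2; limma adjusted p = 5.01e-13 and 1.39e-10).

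The spread of Ddit3 within CFUe and within PreGM was wider than that between the fraction means. KLS arrays stood at 1.45, 1.92 and 2.02 and PreMegE arrays at 1.72, 2.48 and 2.03. GMP arrays, at 1.49, 1.44 and 1.32, and Mac1Gr1 arrays, at 1.59, 1.55 and 1.46, were tight, and Ter119 arrays lay lower, at 0.21, 0.94 and 0.77. In CFUe the values were 2.27, 2.50 and 0.65, and in PreGM 1.54, 1.52 and -0.11. Every pair of neighbours in the order of fractions overlapped. With all arrays, the 1 call in 6 steps was the fall of 1.17 ± 0.44 from CFUe to Ter119 (limma adjusted p = 0.0231). That call was lost under quantile scaling, with the deposited series table, with the slide as a block, in a fit of the 2 fractions alone, and without the first or second CFUe array or the first Ter119 array (limma adjusted p = 0.0545 to 0.121). Among arrays alike in Y-linked transcripts, Ter119 against CFUe differed by -0.02 (limma adjusted p = 0.973).

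Within that set of alike arrays, other Ddit3 differences were larger. PreGM against KLS differed by -1.91 on the log2 scale, where all arrays gave -0.82 and a fit without the third PreGM array -0.27. CFUe against PreMegE differed by -1.42, where all arrays gave -0.27 and a fit without the third CFUe array 0.31. CFUe against KLS differed by -1.15, where all arrays gave 0.01 and a fit without the third CFUe array 0.58. PreMegE lay above PreGM by 2.18, against 1.09 over all arrays (limma adjusted p = 0.0765) and 0.55 without the third PreGM array. In the fits within alike arrays, the CFUe and PreGM means are 1 array each, assumed to vary like the other groups. In the fits without the third array, the fractions compared differ in Y-linked transcripts on every array. The arrays were split after the Y-linked transcripts had been seen, and whether the split or another feature of these 2 libraries sets the Ddit3 level was not tested.

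A few genes of the stress response around Ddit3 were low on the same 2 arrays. The third array lay below the mean of the other 2 of its fraction by -1.73 for Ddit3 in CFUe and by -1.63 in PreGM. Of the 23 stress genes listed, 3 were at least 2-fold lower on the third array in both fractions, Chac1, Trib3 and Atf3, and over all probes tested 1.10% were. Chac1, a target of Atf4 and Ddit3 that degrades glutathione, was lower by -6.38 in CFUe and -5.18 in PreGM. The third CFUe array, at -5.94 for Chac1, lay under the dimmest probe still well above background there (-5.03). The size of the Chac1 difference in CFUe is therefore not measured exactly. Trib3, a pseudokinase induced by Ddit3, was lower by -2.79 and -2.37, and Atf3 by -3.41 and -1.25. Atf4 itself, the factor upstream of Ddit3, differed by -1.01 and -0.75. The chaperone Hspa5, a marker of the unfolded protein response, differed by -0.74 and 0.03, and the medians of the whole stress list were -0.26 and -0.12. Low values on these arrays were not confined to the stress list. The immediate early genes had medians of -1.14 in CFUe and -0.33 in PreGM, with 1 of 14 at least 2-fold lower in both. Of the 19 partners 3 were, Trib3, Atf3 and also Trib1 (-1.31 and -1.55). Chac1 and Hspa5 were singled out after their values had been seen. On the same 2 arrays the summed granulocyte markers were higher, 22.2 against 3.95 and 4.02 in CFUe and 36.4 against 4.6 and 6.04 in PreGM.

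**Figure D3:**
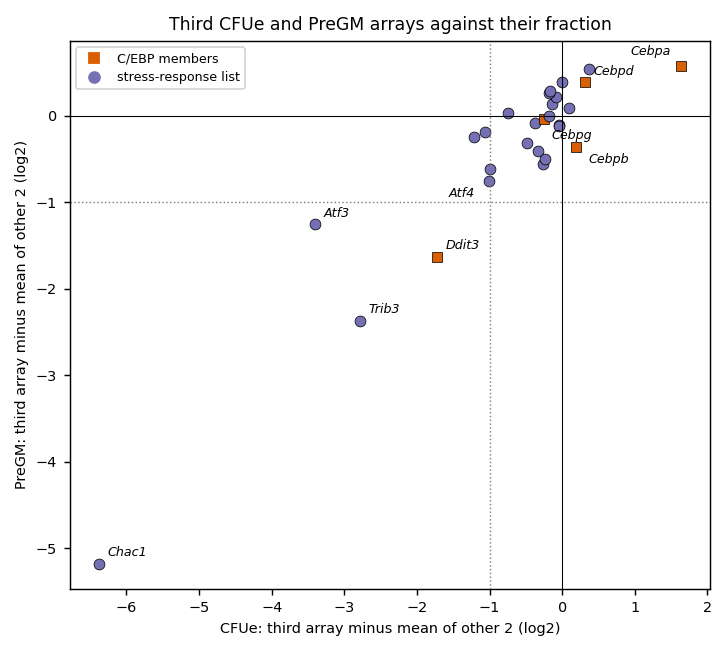
The third array minus the mean of the other 2 arrays of its fraction (log2), for CFUe (x axis) and PreGM (y axis). Squares are the 5 C/EBP members, circles the 23 genes of the stress list and dotted lines a 2-fold decrease. Ddit3, Atf3, Trib3 and Chac1 lie below 2-fold in both fractions, while Cebpa was higher on the third array of both.

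Next, the number of members called at each step was set against the share of all 29532 probes tested, with a call meaning an adjusted p under 0.05 and at least 2-fold. From KLS to PreMegE 3 of the 5 members were called, all lower, against 12.4% of all probes. From PreMegE to CFUe 1 was called (Cebpa, lower; 24.7% of all probes), and from CFUe to Ter119 4 were (3 higher and Ddit3 lower; 57.2%). From KLS to PreGM 2 were called, both higher (8.64%), from PreGM to GMP 2, both higher (10.4%), and from GMP to Mac1Gr1 4 (3 higher and Cebpa lower; 56.7%). Across lineages 3 members were lower in PreMegE than in PreGM (12.0%), 3 in CFUe than in GMP (26.3%) and 3 in Ter119 than in Mac1Gr1 (41.9%). Directly against KLS, 3 were lower in CFUe (36.3%) and 2 higher in GMP (21.7%). At the last step of either lineage most probes were called, so a call there does not set a member apart. Comparisons that share a fraction share its arrays.

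**Figure D4:**
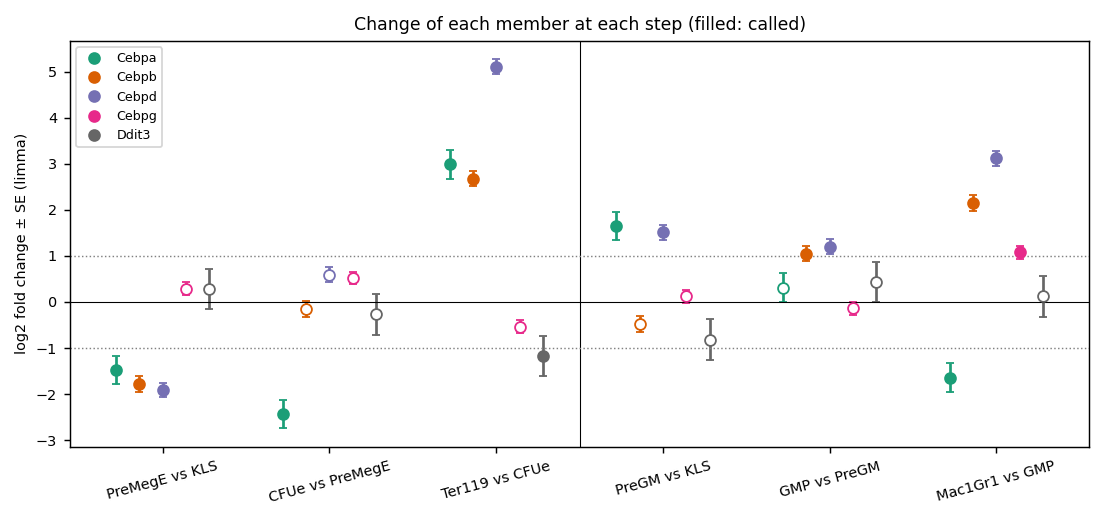
Log2 fold change ± SE of each member at the 3 erythroid steps (left) and the 3 myeloid steps (right), from the limma fit over all arrays. Filled points were called (adjusted p under 0.05 and at least 2-fold, dotted lines). Cebpa, Cebpb and Cebpd fell together by 1.48 to 1.91 at the first erythroid step, and at the last myeloid step Cebpa fell while Cebpb and Cebpd rose.

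The steps of both lineages were then compared directly as a difference of differences, erythroid minus myeloid. At the second step (PreMegE to CFUe against PreGM to GMP), 4 of the 5 members differed, against 34.2% of all probes. Cebpa differed by -2.74 ± 0.44 and Cebpb by -1.20 ± 0.24 (log2; limma adjusted p = 1.20e-04 and 9.15e-04), both lower on the erythroid side. The dimmer Cebpa probe gave -0.61 ± 0.24 there and was not called (limma adjusted p = 0.0631). Cebpd, at -0.62 ± 0.22, and Cebpg, at 0.66 ± 0.20, were nearer the threshold (limma adjusted p = 0.0399 and 0.0177). Cebpd lost its call in 9 of 12 fits that left out an array (limma adjusted p = 0.0584 to 0.104). These were the fits without the first or second PreMegE, CFUe or PreGM array or without any of the GMP arrays. Its call was also lost with quantile scaling, the series table, no filter on dim probes and the slide as a block (adjusted p = 0.0646 to 0.0914). The same held for the replicate block and a term for Y-linked transcripts (adjusted p = 0.0534 and 0.0598). The Cebpg call was lost with the series table (0.56, limma adjusted p = 0.0532), when slides were blocked (0.37, adjusted p = 0.2) and with both dimmer probes (0.66 and 0.36, adjusted p = 0.404 and 0.193), and under spike-in scaling the value was -0.87 (adjusted p = 0.09). At the third step (CFUe to Ter119 against GMP to Mac1Gr1), 3 members differed, against 55.0% of all probes: Cebpa by 4.63 ± 0.44, Cebpd by 1.99 ± 0.22 and Cebpg by -1.62 ± 0.20 (limma adjusted p = 1.55e-07, 1.06e-06 and 3.87e-06). The dimmer Cebpa probe gave 1.70 and kept the call. For Cebpg the call was lost with 1 dimmer probe (-0.71, limma adjusted p = 0.31) and under spike-in scaling (-0.97, adjusted p = 0.0986). Ddit3 differed there by -1.29 ± 0.62 over all arrays (limma adjusted p = 0.0893) and by -1.86 without the third CFUe and PreGM arrays (limma adjusted p = 1.22e-04). In the latter fit every CFUe array lacked the Y-linked transcripts that every Ter119 array carried, so step and split cannot be told apart.

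Genes that act with the family were read from a list of 19 partners and regulators. In CFUe against KLS 12 of the 19 were called lower and 2 higher, with a median of -1.52 against 0.23 for all probes, of which 36.3% were called. Spi1 (PU.1), which works beside Cebpa at myeloid enhancers, stood at 0.48 in PreGM and 0.71 in GMP (mean log2 levels) and at -6.04 in CFUe, where 1 of 3 arrays measured it. Gfi1, a repressor needed for neutrophil formation, stood at 3.42 in GMP and -5.79 in CFUe, again measured on 1 of 3 CFUe arrays. Nfil3, a leucine zipper repressor, fell by 2.33 from KLS to PreMegE and by 1.84 from there to CFUe (log2; limma adjusted p = 8.76e-07 and 5.27e-06). Trib1, which targets C/EBP alpha protein for degradation through the ligase Cop1, fell by 3.09 from KLS to PreMegE and rose by 2.58 at the last myeloid step (limma adjusted p = 2.23e-04 and 2.53e-04).

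Trib2, which marks C/EBP alpha protein for the same fate as Trib1, went the other way at the first erythroid step. Its mean level rose from -2.49 in KLS to 2.26 in PreMegE and 1.38 in CFUe, PreGM stood at -2.14, and no GMP array measured it well above background, so that CFUe exceeded GMP by at least 111-fold (limma adjusted p = 4.39e-12). From KLS to PreMegE Trib2 rose by 4.75 while Cebpa fell by 1.48 (log2). At the last myeloid step Trib2 rose, as Trib1 did, by at least 6.13-fold (limma adjusted p = 8.58e-08). The AP-1 genes Fos, Jun and Jund, which can pair with C/EBP proteins, fell by 3.11, 3.31 and 2.53 from PreMegE to CFUe. From KLS to GMP they fell by 3.19, 2.48 and 2.10. Atf4, which binds composite sites with C/EBP proteins, kept to means between 2.48 in Ter119 and 3.56 in KLS, and Atf5 to means between 0.84 and 1.90.

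**Figure D5:**
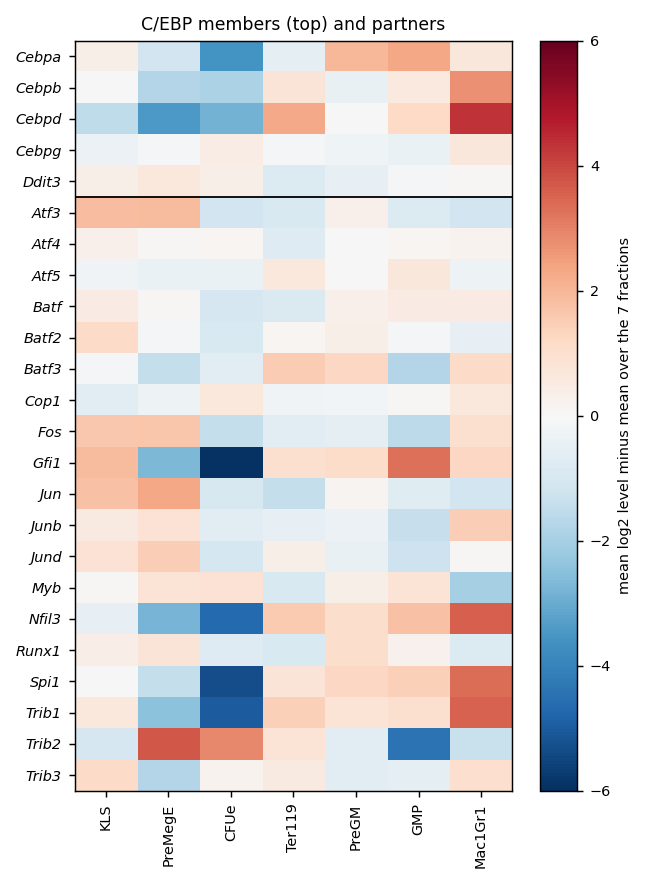
Mean level of the 5 C/EBP members (top) and 19 partners and regulators in each fraction, as the difference from the mean of the gene over the 7 fractions (log2; red higher, blue lower). Spi1, Gfi1, Nfil3 and Trib1 share their lowest fraction, CFUe, with Cebpa, and Trib2 is highest in PreMegE.

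Known C/EBP targets of the myeloid lineage, 16 genes, were measured as well. In CFUe against KLS 13 were called lower and none higher, with a median log2 change of -2.15, against 36.3% of all probes called and a median of 0.23. In PreGM against KLS 5 were called higher (led by Hp, Elane and Prtn3; 8.64% of all probes were called), and in GMP against KLS 10 higher and 1 lower with a median of 2.07 against 0.04 for all probes, 21.7% of them called. The granule protease Elane rose by 2.89 to PreGM and by a further 4.11 to GMP (log2; limma adjusted p = 6.75e-04 and 1.60e-05). From GMP to Mac1Gr1, where Cebpa fell and Cebpb and Cebpd rose, Elane fell by 6.96, Prtn3 fell by 6.77 and Mpo fell by 3.97, all of them primary granule genes. Of the same list 11 genes rose at that step, where 56.7% of all probes were called, the secondary granule genes Ltf, Ngp and Lcn2 by 13.52, 10.60 and 9.08. In Ter119 against CFUe all 16 were called higher, with a median of 8.96, or 8.08 with Csf3r at its bound, where 57.2% of all probes were called and their median was 0.05, and 6 of them are also on the granulocyte list.

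Signals known to induce Cebpb and Cebpd were followed through 12 genes, most of them of the IL-6, G-CSF and STAT pathways. From KLS to PreMegE, where both members fell, 4 of the 12 were called lower and 2 higher, with a median of -0.06 (12.4% of all probes called). The G-CSF receptor Csf3r fell by 4.70, the IL-6 co-receptor Il6st by 2.63 and Socs3, a STAT3 target and feedback inhibitor, by 2.46. Among the others, Stat5a and Jak2 were higher by 1.07 and 1.10. From GMP to Mac1Gr1, where both members rose, 8 of the 12 were called higher and 2 lower, with a median of 1.70 against 0.17 for all probes, 56.7% of which were called. Csf3r rose by 4.42 and Socs3 by 2.67, while Il6st fell by 1.66 and Stat5a by 1.25. From KLS to PreGM and from PreGM to GMP, where Cebpd rose, Socs3 was the single gene of the 12 called, and it fell by 1.19 and 1.07. Of all probes, 8.64% and 10.4% were called at these steps, so the count does not set the list apart.

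Genes whose profile over the 21 arrays was most like that of each member were sought among 14124 genes by Pearson correlation, as a description, since arrays of a fraction are not independent of each other. Cebpa was closest to Chdh (r = 0.977), Egln3 and Parp8 (both 0.961). For Cebpb the closest were Mgst1 (0.974), Cd6 (0.972) and Vsir (0.970), and for Cebpd Dok3 (0.992), Pi16 (0.987) and Slfn2 (0.986). Cebpg was nearest to Tfe3 (0.943), Rchy1 (0.935) and Prkag1 (0.930). Ddit3 had the loosest neighbours, and Atf4 was the first of them (0.851), ahead of Rela (0.826) and Hif1an (0.801). Like Ddit3, Atf4 and Rela were lower on the third CFUe array (-1.01 and -0.87) and the third PreGM array (-0.75 and -0.60). Among the members themselves, Cebpb and Cebpd ran most alike (r = 0.94), and Cebpa with Cebpd gave 0.52.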

How the data were processed

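Deposited scanner files held a linear, background-corrected intensity per spot, made by the authors from Cy3-labelled total RNA (software: Agilent Feature Extraction 10.7.1.1). The deposited series table held log2 values normalized between arrays by the authors and served as an alternative. Rank correlation of its columns with the scanner values was 0.9998 to 1.000.

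Values were log2 intensity minus the 75th percentile of the array over 43379 non-control spots. Outlier spots (80 to 283 per array) were left out, no spot was saturated, and spots of a probe were averaged (41174 probes). A probe was tested if it was well above background on each of the 3 arrays of some fraction (29532 probes). Names came from RefSeq accessions matched to GRCm38.p6 (26690 probes, 64.8%). The array annotation names the build mm9, so only promoter coordinates are given, in GRCm38.p6. List genes without a match (Cebpe, Nfkb1, Ly6g, Hbb-b1, Igll1 and Kit) were not analysed here.

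Fraction means were fitted over all 21 arrays by lmFit and eBayes of limma 3.58.1 under R 4.3.3 (two-sided, no block), with Benjamini-Hochberg adjustment over all probes tested. A call needed an adjusted p under 0.05 and at least 2-fold (adjusted p alone for differences between lineages). The median residual SD was 0.262 (log2) with 14 degrees of freedom, and the number of arrays limits the precision. When 29532 probes were simulated for CFUe vs KLS, 200 of them shifted by 2 (log2), 165 (82.5%) were called and so were 6 unchanged probes. A gene with no array well above background in a fraction was given a bound there, from the dimmest probe still well above background on each array. Arrays lay on 9 slides that each held 2 or 3 fractions, and were scanned on 1 day.

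The members and gene lists (partners, targets, inducers, stress, immediate early, granulocyte, erythroid, macrophage, B cell and sorting genes) were chosen with earlier results of these data known. Named were all members, any partner, the family relative Cebpz, up to 3 called genes per direction of other lists, and the 3 genes most like each member. Alternatives were quantile, spike-in (7 of 10 sequences) and normexp (offset 50) processing, the series table, no filter, no minimum fold, 1 probe per gene, other probes, a slide block, a replicate block, a fit of only the fractions compared, and each array left out in turn. Leaving out the third CFUe and PreGM arrays, a term for Y-linked transcripts and a fit within arrays alike in them were added after seeing the data. Figures were drawn with matplotlib 3.10.9.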

Additional observations from a re-analysis of the deposited data

Results flagged for a closer look

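Differences between the lineages under the same step were found for 4 members at the second step (PreMegE to CFUe against PreGM to GMP, erythroid minus myeloid, log2, limma with Benjamini-Hochberg adjustment). They were -2.74 ± 0.44 for Cebpa (adjusted p = 1.20e-04; -0.61 and not called with its dimmer probe, adjusted p = 0.0631), -1.20 ± 0.24 for Cebpb (adjusted p = 9.15e-04), -0.62 ± 0.22 for Cebpd (adjusted p = 0.0399) and 0.66 ± 0.20 for Cebpg (adjusted p = 0.0177). The Cebpd call was lost in 9 of 12 fits that left out an array. It was also lost with quantile scaling, the series table and the slide as a block (limma adjusted p = 0.0646, 0.0745 and 0.0914), among other settings. The Cebpg call was lost with either of its dimmer probes (adjusted p = 0.404 and 0.193).

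At the third step (CFUe to Ter119 against GMP to Mac1Gr1), the limma differences were 4.63 ± 0.44 for Cebpa (adjusted p = 1.55e-07), 1.99 ± 0.22 for Cebpd (adjusted p = 1.06e-06) and -1.62 ± 0.20 for Cebpg (adjusted p = 3.87e-06). With dimmer probes, Cebpa differed by 1.70 and Cebpg by -0.71 (adjusted p = 0.31) or -0.64. The summed granulocyte markers, 5120 to 6380 in Ter119, moved with the third step, and their part in it was not tested.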

How the results depend on the processing

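Of the single-gene results under the alternatives, 1186 kept their direction and their side of the threshold, 34 were not called either way but changed sign (mostly Ddit3 and Cebpg), 31 became calls, 47 lost the call and 6 reversed. Counts of members stayed within 1.5 times the reported count in 241 cases, rose in 5 and fell in 7. For CFUe vs PreMegE the count was 3 with no minimum fold and 2 both with a term for Y-linked transcripts and within arrays alike in them. For GMP vs PreGM it was 4 under spike-in scaling and 1 with normexp, without the third CFUe and PreGM arrays and within alike arrays, and 1 to 2 when single arrays were left out. For Ter119 vs Mac1Gr1 it was 5 under spike-in scaling. For the second-step difference between lineages it was 2 with the series table and 2 with the slide as a block. Reversed values (log2) under spike-in scaling were -0.96 for Cebpg and -1.91 for Ddit3 from GMP to Mac1Gr1, and -0.87 for Cebpg at the second step, on a scale where the median of all probes was -1.86 from GMP to Mac1Gr1 and -1.39 at the second step. Cebpg from GMP to Mac1Gr1 was -0.58 with another probe. Ddit3 in CFUe vs KLS was -1.11 with a term for Y-linked transcripts and -1.15 within alike arrays. The causes were not tested. Same-numbered arrays did not deviate together (r from -0.431 to 0.367), so the numbers do not pair the samples. With the replicate block, Cebpd at the second step was -0.62 (limma adjusted p = 0.0534) and no other member result changed its call. Members were well above background on every array, and 3 arrays per fraction limit the precision. For Cebpa and Cebpg the values also depend on the probe.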
